A study of Caenorhabditis elegans with 66 samples.

Results

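F-box A genes carry names that start with fbxa- and form one of the largest gene families of Caenorhabditis elegans. Here they are all genes of that name without fbxa-107 that had 10 or more counts in 3 libraries of at least 1 of a pair of gene tables. Of 169 such genes, 98 passed, 97 in a table of polyA RNA and 44 in a table of ribosome-depleted (Ribo-Zero) RNA, with 43 in both, 54 in polyA alone and fbxa-218 in Ribo-Zero alone. The remaining 71 genes passed in neither table, and 69 of those had at least 1 count somewhere in the 12 libraries. Just inside the filter in polyA lay fbxa-199, with 4, 6 and 2 counts in wild type against 10, 13 and 15 in rpb-9, and just outside lay fbxa-71, with 0, 0 and 2 against 9, 15 and 9. In Ribo-Zero the nearest were fbxa-79 inside, with 5, 9 and 9 counts in wild type against 10, 16 and 12 in prg-1, and fbxa-10 outside, with 2, 4 and 1 against 9, 17 and 23.

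The series asks how RPB-9, a small subunit of RNA polymerase II, acts in the piRNA pathway, in which short germline RNAs bound by the Argonaute protein PRG-1 silence other transcripts. Libraries were made from whole animals grown at 20 °C on HB101 bacteria. For polyA RNA, 3 rpb-9 (mj261) libraries stood against 3 wild-type libraries, and for Ribo-Zero RNA 3 prg-1 (n4357) libraries stood against 3 other wild-type libraries, each merged from 2 sequencing lanes. The mj261 allele is a premature stop codon from a chemical mutagenesis screen and n4357 is known as a loss-of-function allele of prg-1. The mj261 screen was run in worms with the piRNA sensor, a germline gfp transgene under a mex-5 promoter that piRNAs silence, which the mapping reference includes as an extra chromosome. Whether every sequenced strain carries it is not given in the sources used here. The table columns name strains, and the strain shared by the tables was taken as wild type. The developmental stage of these libraries is not given in the sources used here, and neither is whether replicates came from separate cultures, so that p-values measure the spread between these samples.

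An F-box protein is the exchangeable part of an SCF ubiquitin ligase. Its F-box motif binds a Skp1-like linker (SKR proteins in the worm), the linker docks on a cullin (CUL-1 or CUL-6) with the RING protein RBX-1, and the rest of the F-box protein holds the substrate that is to be ubiquitinated. Members of the F-box A family pair the F-box with an FTH domain, named after FOG-2, the F-box protein that hermaphrodite germ cells need to make sperm. Most family members have no known substrate. The family is young and expanded in nematodes, with many copies side by side on chromosome arms.

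Sequencing depth was 24089119 to 36206855 counts on genes per polyA library and 6099620 to 9881132 per Ribo-Zero library, so the Ribo-Zero table resolves fewer members. The prg-1 gene itself had 1262, 1619 and 1261 counts in wild type against 500, 463 and 480 in the prg-1 libraries of that table, which goes with the labels. A stop codon need not change a transcript's level, so rpb-9 counts check nothing in the polyA table. The library labelled prg-1 replicate 3 stood apart: its scaling factor was 1.32 against 0.863 to 1.01 in the other 5, and 587 genes were called without it against 14 with it. Summed levels of marker genes of tissues moved with the genotype in polyA RNA. In polyA, the summed level of 22 sperm genes was 13.8 to 18.1 CPM (counts scaled to a common library size) in wild type and 62.9 to 78 in rpb-9, with 17 of 19 tested called higher and 1 lower. The 15 oocyte and early embryo genes went the other way, from 14191 to 14664 CPM in wild type to 7270 to 8823 in rpb-9, while 10 intestinal genes summed to 2192 to 2577 CPM in wild type and 3499 to 4358 in rpb-9. In Ribo-Zero RNA the sperm sum ran from 46.5 to 113 CPM for wild type, with prg-1 libraries between 18.2 and 309. The sums of 10 body wall muscle genes (971 to 1356 CPM in wild type, 1452 to 2488 in rpb-9) and 10 neuronal genes (182 to 219, 228 to 239) were also higher in rpb-9, and that of 15 mitotic and meiotic germline genes was lower (4174 to 4347, 2572 to 3031), with no overlap of libraries in any of these lists. In polyA, log2 fold changes were above 0 for 9 of the 10 intestinal, 9 of the 10 muscle and all 10 neuronal genes. The same held for 1 of the 15 germline and 0 of the 15 oocyte genes. By edgeR, 1 intestinal and 3 muscle genes were called higher and 1 oocyte gene lower. No neuronal or germline gene was called. Over all genes tested, 13.8% were higher and 1.49% lower. Most of the neuronal sum came from snb-1 (139 CPM in wild type, 149 in rpb-9, log2 fold change 0.10). No marker of these lists was at 0 in a whole table. In whole animals, fewer cells of a type and less RNA per cell cannot be told apart, and the part of these shifts in the values below was not tested.

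Members lay on every chromosome, with 39 of 60 fbxa genes passing on III, 37 of 70 on V, 9 of 14 on II, 6 of 14 on X, 4 of 6 on I and 3 of 5 on IV. A cluster was set as 3 or more fbxa genes with neighbouring starts at most 50 kb apart. By that rule there were 15 clusters, which held 56 of the 98 members. The longest list is cluster III-b, with 27 fbxa genes in 145 kb, followed by III-c with 15 in 94.3 kb and III-a with 10 in 30.4 kb. Exon lengths of the members ran from 810 to 5666 bases.

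Near-identical copies make some counts uncertain. Reads were 50 bases long and a read that matched several places was split between them, so each gene's exons were divided into 50-base windows, and windows found more than once in the genome were counted. For 16 of the 97 members tested in polyA, 5% or more of windows were shared. The called genes with most shared windows were fbxa-156 and fbxa-157 on chromosome V, which share 754 windows of 1003 and 981. Over 1137 aligned coding bases they were 96.7% identical, with 1 run of 903 identical bases. The most divergent 150-base coding stretch is shown for both, from coding base 940 in each, since only reads from such stretches can tell the genes apart. Capitals mark the 24 positions that differ. All sequences and positions here are of the ce11 assembly, with sequences read 5′ to 3′ from its RefSeq genome.
fbxa-156, chrV:17895423-17895572, minus strand: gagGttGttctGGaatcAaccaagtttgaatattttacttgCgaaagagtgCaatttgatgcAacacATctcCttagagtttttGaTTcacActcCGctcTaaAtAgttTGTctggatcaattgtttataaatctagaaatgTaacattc
fbxa-157, chrV:17901668-17901817, plus strand: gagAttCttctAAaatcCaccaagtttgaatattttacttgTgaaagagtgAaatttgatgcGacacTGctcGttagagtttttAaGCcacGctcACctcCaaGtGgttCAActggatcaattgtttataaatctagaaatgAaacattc

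The levels of F-box A transcripts in wild type spanned several orders of magnitude. Levels are compared between genes as RPKM, which is CPM per 1000 bases of exon. In polyA RNA, fbxa-215 (chrIV:13665344-13666911) led with 187 ± 10.8 RPKM (SD, n = 3, here and below). It was followed by fbxa-210 with 43.8 ± 2.02, fbxa-101 with 43.3 ± 3.81, fbxa-206 with 37.1 ± 3.66 and fbxa-192 with 35.7 ± 1.95 RPKM. The SD intervals of each of those 4 and the next in order overlapped, so their order is not settled. In Ribo-Zero RNA the same 5 genes led, with fbxa-215 at 66.2 ± 3.49 RPKM, fbxa-101 at 15.1 ± 1.07, fbxa-210 at 14.3 ± 1.57, fbxa-206 at 13.7 ± 2.61 and fbxa-192 at 12.2 ± 1.31. Across the 43 members tested in both tables, the rank correlation of wild-type levels was 0.92 (Spearman, a description over genes that are not independent). At the other end, 19 members tested in polyA had a wild-type level under 0.5 RPKM.

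The first comparison asks which F-box A genes change in polyA RNA when RPB-9 is cut short. In rpb-9, 33 of 97 members were called higher and 4 lower, at an adjusted p under 0.01 and a log2 fold change beyond 1. Those are 34.0% and 4.12% of members, against 13.8% and 1.49% of the 14275 genes tested (15.3% in either direction). The median log2 fold change of the members was 0.92, with quartiles of 0.02 and 1.47, against a median of 0.14 over all genes. Fold changes were above 0 for 74 members and below 0 for 23. The 3 libraries of one genotype lay wholly above or below those of the other for 72 members (74.2%), against 60.7% of all genes. Without wild-type replicate 3 the test called 20 members higher and 4 lower, and without rpb-9 replicate 1 it called 40 and 5.

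Fold changes went with level, both in the family and in all genes. Among members under 0.5 RPKM in wild type, 9 of 19 were called higher, with a median log2 fold change of 1.86, against 34.7% and 1.14 for all genes at that level. From 0.5 to 2 RPKM, 17 of 41 members were called higher (41.5%) with a median of 0.95, against 20.6% and 0.63. At 2 RPKM or more, 7 of 37 were higher and all 4 lower members were found, with a median of -0.09, against 7.48% higher, 1.73% lower and a median of -0.12 for all genes. The rank correlation of wild-type level with fold change was -0.65 over the 97 members and -0.60 over all genes, where both values share the wild-type libraries. A further 12 members passed the count filter through the rpb-9 libraries alone and had to lie higher there, which fixed the direction of their values. Of the 75 members with 10 or more counts in every wild-type library, 26 were higher and 4 lower, with a median of 0.74. Among the 71 members with whole counts in every library, 25 were higher and 4 lower, though split reads can add up to whole counts.

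**Figure D1:**
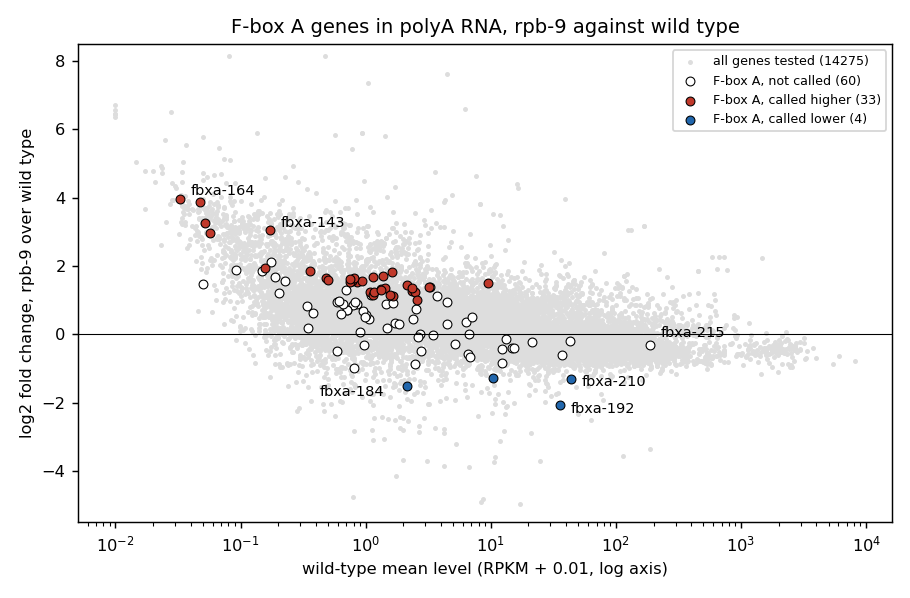
Log2 fold change of rpb-9 over wild type in polyA RNA (y axis) against the mean wild-type level (x axis, RPKM plus 0.01, log scale). Grey points are all 14275 genes tested, red and blue points are the 33 members called higher and the 4 called lower, and open points are the 60 members not called. The largest rises sit at the lowest levels, and the 4 falls sit at 2.12 RPKM or more.

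The largest rises were in genes close to silent in wild type. fbxa-164 (chrII:1612788-1614059) had 0, 0 and 2 counts in wild type against 13, 14 and 21 in rpb-9, a ratio of 18 after scaling for depth, with a 95% interval of 4.71 to 153 that covers counting error only. Its neighbour fbxa-163 in cluster II-a had 1, 2 and 1 counts in wild type against 28, 13 and 13 in rpb-9, a ratio of 10.1 (3.73 to 38.5). Both are among the 12 members that passed the filter through the rpb-9 libraries alone, so that the separation of the genotypes was set by the filter. fbxa-163 was not called when any 1 wild-type library was left out (adjusted p of 0.0137 to 0.0174), and fbxa-164 was not called without wild-type replicate 2 (adjusted p = 0.0111), while without wild-type replicate 3 its fitted log2 fold change moved from 3.96 to 6.85. Cluster II-a holds 6 fbxa genes on the same strand of chromosome II, and only these passed the filter. fbxa-158, which encodes a subunit of a CUL-6 ligase of the intracellular pathogen response, belongs to the same cluster but had 0, 0 and 0 counts in wild type against 4, 11 and 4 in rpb-9, too few to be tested. Another subunit of that ligase, fbxa-75 on chromosome III, had 0 counts in all 6 polyA libraries.

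On chromosome V, the cluster V-c held another such pair. fbxa-88 had 0, 2 and 1 counts in wild type against 19, 20 and 26 in rpb-9, a ratio of 16.2 (5.31 to 80.8), and overlaps fbxa-18 on the other strand, whose reads cannot be told apart in counting without strand. fbxa-143 (chrV:16125811-16127497) had 2, 7 and 6 counts in wild type against 39, 61 and 67 in rpb-9, a log2 fold change of 3.04 ± 0.38 (SE, adjusted p = 0.000655). These too passed through the rpb-9 libraries alone. The 3 other fbxa genes of that cluster did not pass. Further along the arm, fbxa-172 in cluster V-f had 2, 2 and 2 counts in wild type against 22.5, 21.5 and 22 in rpb-9, a ratio of 8.24 (3.59 to 23.3). It shares 214 of its 1204 windows with fbxa-185, so part of its reads were split, and it also passed through the rpb-9 libraries alone.

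fbxa-51 and fbxa-105 had higher counts, and their rises and standard errors were smaller than those of fbxa-143. fbxa-51 in cluster III-a (chrIII:962304-963526) had 35, 39 and 41 counts in wild type against 215, 148 and 180 in rpb-9, a log2 fold change of 1.82 ± 0.21 (adjusted p = 0.000447). fbxa-105, which stands alone on chromosome V, had 39, 43 and 35 counts in wild type against 197, 148 and 168 in rpb-9 (1.71 ± 0.21, adjusted p = 0.000554). Genotypes were fully apart in either gene. fbxa-209 in cluster V-a had 11, 11 and 7 counts in wild type against 69, 38 and 35 in rpb-9 (1.86 ± 0.40, adjusted p = 0.00577). fbxa-9 in cluster III-c had 3, 4 and 7 counts in wild type against 24, 26 and 23 in rpb-9 (1.95 ± 0.34, adjusted p = 0.00262). Both overlap other fbxa genes, fbxa-104 and fbxa-48, and lost the call when a wild-type library was left out. fbxa-48 itself had 8, 6 and 8 counts in wild type against 47, 24 and 17 in rpb-9 and was not called (1.57 ± 0.48, adjusted p = 0.025). fbxa-9 and fbxa-48 passed the filter through the rpb-9 libraries alone, which fixed the direction of their values.

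The near-identical pair rose alike. fbxa-156 had 93.5, 107 and 101 counts in wild type against 430.5, 308 and 326 in rpb-9 (1.40 ± 0.19, adjusted p = 0.000812). fbxa-157 had 66.5, 77 and 69 counts in wild type against 258.5, 221 and 240 in rpb-9 (1.34 ± 0.16, adjusted p = 0.000574). Since most of their reads were split, these are not independent values. Members next to the thresholds were fbxa-150, called with a log2 fold change of 1.01, fbxa-74, not called with 0.95, and fbxa-182, not called with 1.38 because its adjusted p was 0.0101.

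Cluster III-a had values above 0 in all its members tested. It covers 30.4 kb of chromosome III and holds 10 fbxa genes, of which 8 were tested in polyA. All 8 had a log2 fold change above 0 and 5 were called higher, against 74 and 33 of the 97 members. The median was 1.25, against 0.92 over the members, and 13.8% of all genes were called higher. From left to right the values were 1.12 for fbxa-55, 1.26 for fbxa-59, 1.51 for fbxa-60, 1.24 for fbxa-67, 1.67 for fbxa-11, 0.95 for fbxa-10, 0.89 for fbxa-54 and 1.82 for fbxa-51. fbxa-60 had the highest level in it, with 291, 266 and 284.5 counts in wild type against 1245, 911 and 1075 in rpb-9 (adjusted p = 0.000439). fbxa-67 had 57, 80 and 74 counts in wild type against 249, 193.5 and 221.5 in rpb-9, and fbxa-11 had 28, 23 and 25 against 88, 109 and 130. In both, as in fbxa-60, the lowest rpb-9 library exceeded the highest wild-type library.

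fbxa-67 and fbxa-11 face away from each other across 198 bases with no annotated exon, shown here because both genes rose. Another divergent pair of called genes, fbxa-188 and fbxa-189 in cluster V-e, is separated by 287 bases in the annotation. By the bounds in the tables these genes overlap, so they may share reads in counting without strand. Among 25 pairs of adjacent fbxa genes with both tested, 5 pairs had both genes higher and 1 had both lower, 10 had 1 gene called and 9 had none. Of the 5 divergent pairs, 2 had both higher. Signs were opposite in 2 of the 25 pairs. Of all members tested, 34.0% were called higher and 4.12% lower, and pairs of other genes were not counted.
fbxa-67 to fbxa-11, chrIII:950671-950868, plus strand: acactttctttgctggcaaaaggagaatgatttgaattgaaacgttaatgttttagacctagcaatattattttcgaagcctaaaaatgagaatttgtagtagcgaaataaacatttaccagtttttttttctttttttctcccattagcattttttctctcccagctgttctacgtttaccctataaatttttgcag
fbxa-188 to fbxa-189, chrV:17344927-17345213, plus strand: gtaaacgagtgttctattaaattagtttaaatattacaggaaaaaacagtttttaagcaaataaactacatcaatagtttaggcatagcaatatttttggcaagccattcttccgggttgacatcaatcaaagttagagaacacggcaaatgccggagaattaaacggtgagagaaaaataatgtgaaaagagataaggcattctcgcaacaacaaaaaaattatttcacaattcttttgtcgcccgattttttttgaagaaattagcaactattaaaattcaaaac

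The 250 bases before each annotated gene start were searched on both strands for TGATAA, the site of intestinal GATA factors, and for CTGTTTCA, the core of the promoter motif of many piRNA genes. TGATAA occurred in 52 of the 98 member windows (53.1%), 76 of all 169 fbxa windows (45%) and 26.8% of the windows of 19973 protein-coding genes. Mean GC content was 31.5% in the member windows and 33.8% in all. The share was 18 of 33 among members called higher (54.5%), 34 of 60 among those not called (56.7%) and 0 of 4 among those called lower, and these shares were not tested against each other. CTGTTTCA occurred before 1 member, fbxa-84, and before 2.02% of all protein-coding genes. Windows of fbxa-51 and fbxa-59, both called higher in cluster III-a, are shown with their TGATAA sites in capitals. They also share an identical run of 30 bases that no other window of a protein-coding gene holds.
fbxa-51, chrIII:962019-962268, plus strand: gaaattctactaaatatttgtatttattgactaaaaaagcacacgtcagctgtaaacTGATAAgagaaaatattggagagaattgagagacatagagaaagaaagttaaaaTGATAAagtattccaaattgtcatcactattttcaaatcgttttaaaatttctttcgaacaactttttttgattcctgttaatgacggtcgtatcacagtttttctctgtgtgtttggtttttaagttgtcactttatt
fbxa-59, chrIII:943477-943726, minus strand: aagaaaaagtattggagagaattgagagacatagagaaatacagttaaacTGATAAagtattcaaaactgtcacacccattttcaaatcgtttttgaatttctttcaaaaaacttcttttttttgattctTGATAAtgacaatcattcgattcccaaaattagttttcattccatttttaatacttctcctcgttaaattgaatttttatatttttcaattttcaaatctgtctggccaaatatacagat

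Of the 4 lower members, 3 were among the more abundant F-box A transcripts in wild type, at 10.5 to 43.8 RPKM, and fbxa-184 was at 2.12. fbxa-192 (chrV:17640672-17650522) had 988, 1190 and 1254 counts in wild type against 390, 315 and 379 in rpb-9, and fell by 2.08 ± 0.12 on the log2 scale (adjusted p = 3.94e-05). By the bounds in the tables, the tested genes on either side of it, WBGene00010209 at 630 bases and WBGene00010295 at 2960 bases, were also called lower, with log2 fold changes of -2.38 and -1.06. fbxa-184 (chrII:1710259-1711417) had 46, 58 and 43 counts in wild type against 21, 24 and 24 in rpb-9 (-1.5 ± 0.23, adjusted p = 0.00136). Wild-type and rpb-9 libraries were fully apart in both. fbxa-210 (chrV:18125375-18127205) had 1342, 1545 and 1526 counts in wild type against 930, 673 and 789 in rpb-9 (-1.30 ± 0.13, adjusted p = 0.000307). Next to it, fbxa-211 had 272, 286 and 278 counts in wild type against 143, 142 and 174 in rpb-9 (-1.29 ± 0.15, adjusted p = 0.000511).

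fbxa-210 and fbxa-211 follow each other on the plus strand in cluster V-g, with 313 bases between their annotated bounds. On the other side of fbxa-210 lies fbxa-107, which is not counted among the members here and was also called lower, with a log2 fold change of -4.98 (adjusted p = 1.13e-05). The remaining member there, fbxa-106, had a log2 fold change of -0.83 ± 0.20 (adjusted p = 0.00896), short of the fold threshold. All 3 tested members of V-g were thus below 0, and all 3 in cluster V-b were too, with -0.39 for fbxa-95, -0.67 for fbxa-153 and -0.88 for fbxa-94, none called. The stretches before fbxa-192 and fbxa-210 are shown because these genes had the highest levels among the 4 lower members. They hold neither motif.
fbxa-192, chrV:17650528-17650677, minus strand: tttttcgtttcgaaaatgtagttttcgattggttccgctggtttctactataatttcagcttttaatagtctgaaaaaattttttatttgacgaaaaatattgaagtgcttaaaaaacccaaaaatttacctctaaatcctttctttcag
fbxa-210, chrV:18125236-18125374, plus strand: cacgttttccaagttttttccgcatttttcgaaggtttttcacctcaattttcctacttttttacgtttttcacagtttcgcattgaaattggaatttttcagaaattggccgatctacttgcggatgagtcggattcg

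Of the most abundant members, fbxa-215, fbxa-101 and fbxa-206 were not called. fbxa-215 had 5304, 7129 and 7102 counts in wild type against 7606, 6139 and 7330 in rpb-9 (log2 fold change -0.30 ± 0.10, adjusted p = 0.0339). fbxa-101 had a log2 fold change of -0.20 ± 0.21 (adjusted p = 0.437) and fbxa-206 one of -0.62 ± 0.16 (adjusted p = 0.0116). The summed level of the 97 members was 714 to 760 CPM in wild type and 617 to 789 in rpb-9, with overlapping libraries. Without the 4 members of highest wild-type level the sum was 311 to 330 CPM in wild type and 365 to 461 in rpb-9, with no overlap of libraries.

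By chromosome, the 38 members tested on III held 12 higher and 0 lower, with a median of 1.03, while all genes tested on III had a median of -0.11 and 8.30% higher. The 37 on V held 15 higher and 3 lower, with a median of 0.88 against 0.40 and 19.6% for all genes there. On II, 5 of 9 were higher and 1 lower, against 12.5% and 2.11% of all genes there. The 5 include fbxa-163 and fbxa-164, whose direction the count filter fixed. On IV, 1 of 3 was higher, against 18.3%. None of 4 on I and none of 6 on X was called by edgeR, where 8.85% and 13.6% of all genes were higher, and of these 10 genes 1 on X was higher and 1 on each chromosome lower at an unadjusted p under 0.05. Members in clusters (20 higher and 2 lower of 56, median 1.15) and outside them (13 and 2 of 41, median 0.50) differed in median, which was not tested. The counts by chromosome and by cluster include members that passed the filter through the rpb-9 libraries alone, which fixed their direction. Of those, fbxa-163, fbxa-164, fbxa-88, fbxa-143, fbxa-172, fbxa-9 and fbxa-48 lie in clusters. Level was not matched between these sets.

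**Figure D2:**
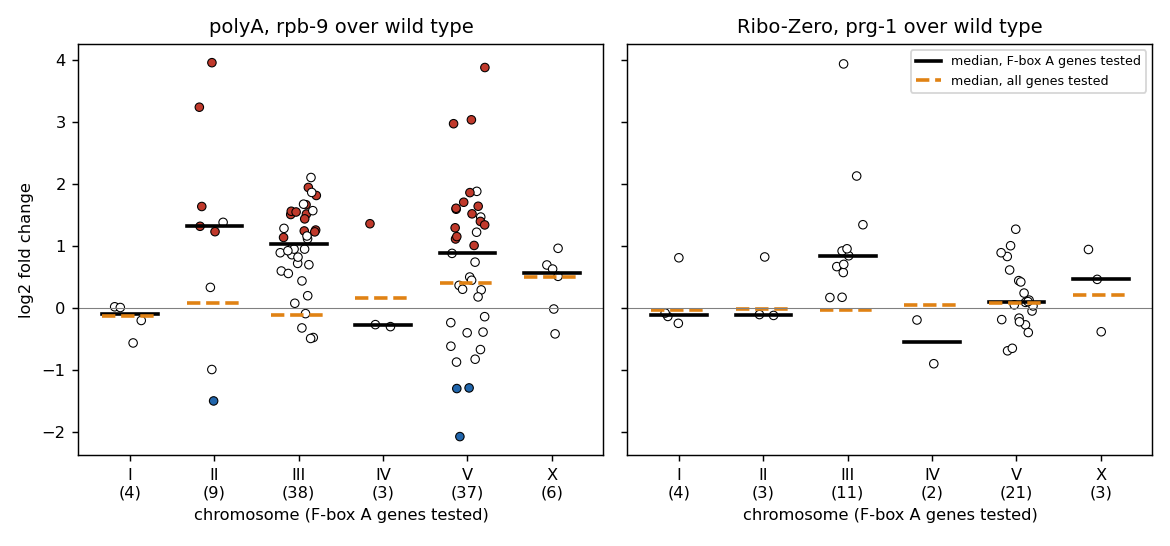
Log2 fold change of each member tested, by chromosome, in polyA RNA (left, rpb-9 over wild type) and Ribo-Zero RNA (right, prg-1 over wild type). Red and blue points are called higher and lower, open points are not called, black lines are medians of the members and dashed lines medians of all genes tested on that chromosome. On III the median of the members is 1.03 on the left and 0.84 on the right, while that of all genes is near 0. These medians include members whose direction the count filter fixed, such as fbxa-9 on the left and fbxa-11 on the right.

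The second comparison asks the same of prg-1 mutants, in Ribo-Zero RNA. With edgeR none of the 44 members tested was called, where 14 of 11794 genes were (0.119%, with 0.102% higher and 0.0170% lower). At an unadjusted p under 0.05, 6 members were higher and 2 lower (10.7% and 8.13% of all genes). At an adjusted p under 0.05 with no fold threshold, 2 members were called, against 1.16% of all genes. DESeq2 called 2 members higher at the main thresholds, with 180 of 11794 genes higher and 155 lower. When prg-1 replicate 3 was left out, edgeR also called 2 members higher, with 396 genes higher and 191 lower. The median log2 fold change of the members was 0.17 against 0.02 over all genes, with 28 above 0 and 16 below. Leaving out 1 library moved the members' median to between 0.19 and 0.32, the highest without wild-type replicate 2 or prg-1 replicate 1, each at 0.32. Fold changes went with level here too: the rank correlation over the 44 members was -0.73, and all genes had medians of 0.89 under 0.5 RPKM, 0.48 from 0.5 to 2 and -0.06 at 2 or more, against 0.95, 0.76 and -0.11 for 4, 18 and 22 members. No mutant library fell in the wild-type range, nor the reverse, for 15 members (34.1%), against 25% of all genes.

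The members with the lowest p were the divergent pair of cluster III-a. fbxa-11 (chrIII:950882-952055) had 5, 6 and 4 counts in wild type against 47, 78 and 110 in prg-1, a log2 fold change of 3.94 ± 0.42 (edgeR adjusted p = 0.0127, DESeq2 adjusted p = 1.85e-09). fbxa-67 (chrIII:949327-950611) had 19, 17 and 15 counts in wild type against 70.5, 60.5 and 96 in prg-1, a log2 fold change of 2.13 ± 0.29 (edgeR adjusted p = 0.0264, DESeq2 adjusted p = 2.18e-05). fbxa-11, fbxa-37 and fbxa-79 passed the filter through the prg-1 libraries alone, so that their direction was set by it. For fbxa-67, with 10 or more counts in every library, each prg-1 library exceeded each wild-type library. fbxa-11 overlaps T12B5.16 and fbxa-67 overlaps WBGene00020459 in the annotation, so reads of those genes may be among the counts. The 4 other tested members of the cluster were also above 0, with 0.17 for fbxa-55, 0.84 for fbxa-59, 0.67 for fbxa-60 and 0.57 for fbxa-51, none past an adjusted p of 0.05.

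**Figure D3:**
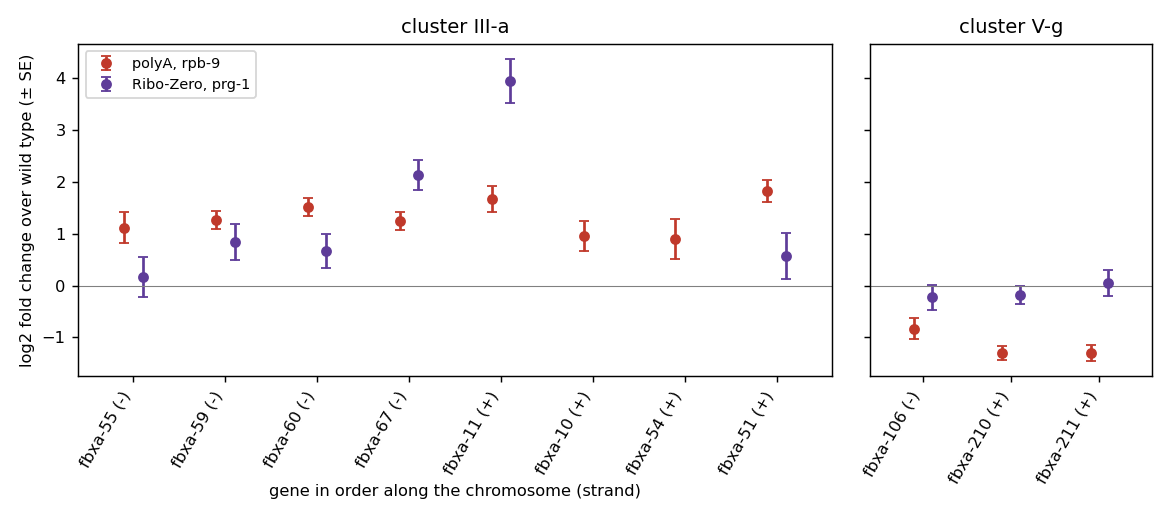
Log2 fold change with its standard error for each tested member of clusters III-a (left) and V-g (right), in order along the chromosome, with the strand in parentheses. Red points are rpb-9 in polyA RNA and purple points prg-1 in Ribo-Zero RNA, each over its own wild type. In III-a all points lie above 0, and the tallest is fbxa-11 in prg-1 at 3.94.

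After these, fbxa-37 had 5, 6 and 3 counts in wild type against 11, 14 and 11 in prg-1 (1.34 ± 0.39, adjusted p = 0.147). fbxa-189 had 6, 9.5 and 10 counts in wild type against 26.5, 23.5 and 14 in prg-1 (1.27 ± 0.39, adjusted p = 0.159). Neither passed the adjusted threshold. At the other end, fbxa-192 had 119, 138 and 123 counts in wild type against 69, 80 and 88 in prg-1 (-0.69 ± 0.17, adjusted p = 0.112). fbxa-83, whose span holds many piRNA genes, had 20, 27 and 14 counts in wild type against 9, 9 and 14 in prg-1 (-0.90 ± 0.35, adjusted p = 0.23). These 4 genes were picked for their values. On chromosome III all 11 members tested were above 0, with a median of 0.84, while the median of all genes there was -0.03. These 11 include fbxa-11, fbxa-37 and fbxa-79, whose direction the count filter fixed. The sets were not matched for level, and over the whole genome all genes had medians of 0.89 under 0.5 RPKM, 0.48 from 0.5 to 2 and -0.06 at 2 or more.

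Across the tables, 14 of the 33 members called higher in rpb-9 were also tested in prg-1. Of those, 12 had a prg-1 log2 fold change above 0, and the median of the 14 was 0.77. The 12 include fbxa-11, fbxa-37 and fbxa-79, which passed the filter through the prg-1 libraries alone and so had to lie above 0. All genes called higher in rpb-9 gave the same picture, with 89.4% of 1364 above 0 and a median of 0.77, so the members did not stand out from them. Of the 3 lower members tested in both tables, fbxa-192 and fbxa-210 were below 0 in prg-1 and fbxa-211 was at 0.05. fbxa-210 had 131, 205 and 141 counts in wild type against 138, 118 and 159 in prg-1, with overlapping libraries. The RNA was prepared differently for the tables and depth was lower in Ribo-Zero, so the difference between the mutants was not tested.

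**Figure D4:**
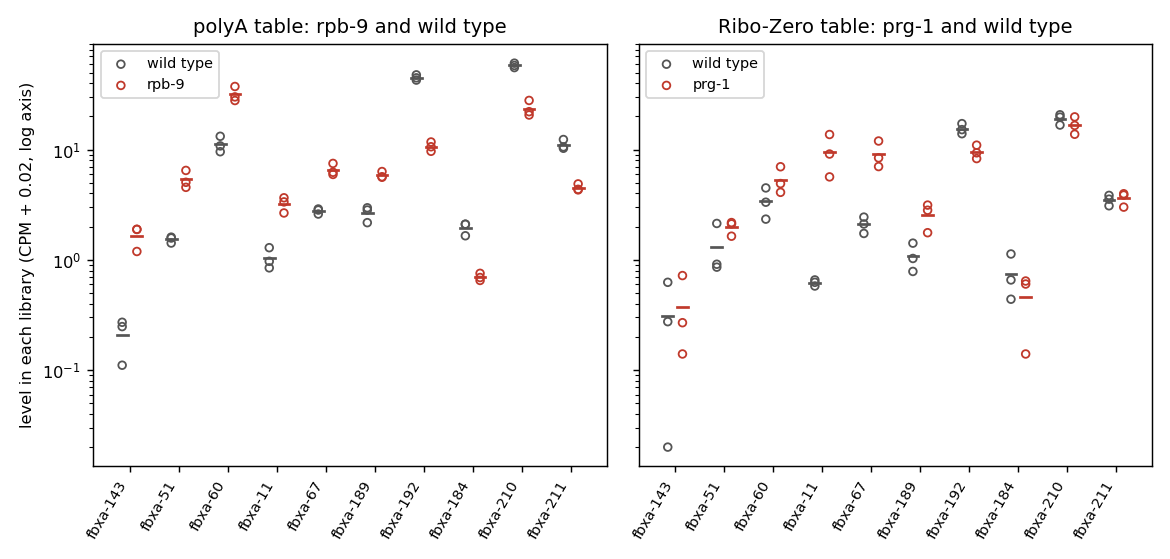
Level of 10 members in each library (CPM plus 0.02, log scale), in polyA RNA (left) and Ribo-Zero RNA (right). Grey circles are wild type, red circles the mutant, and short lines the means of 3 libraries. In polyA the genotypes are apart for all 10 genes, while in Ribo-Zero they are apart for fbxa-11, fbxa-67, fbxa-189 and fbxa-192, where the count filter fixed this for fbxa-143 in polyA and fbxa-11 in Ribo-Zero.

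The partners of F-box proteins were read from a fixed list of SCF and cullin-RING parts. In polyA RNA, 30 of the 31 found were tested, and skr-6 was at 0. Of the 30, 6 were higher and 0 lower, where 13.8% and 1.49% of all genes were. The median log2 fold change was 0.13, against 0.14 over all genes. The 6 were Skp1-like linkers: skr-5 (1.61), skr-8 (1.34), skr-9 (1.09), skr-10 (1.56), skr-12 (1.91) and skr-13 (1.17). skr-5, which lies 197 bases from fbxa-189 by the bounds in the tables, had 23, 19 and 21 counts in wild type against 92, 68 and 101 in rpb-9. skr-8, skr-9, skr-10, skr-12 and skr-13 are similar in sequence and their counts were partly split. Of the general linkers, skr-1 had a log2 fold change of 0.16 and skr-2 one of -0.99 (adjusted p = 0.000239), just short of the fold threshold. The other linkers short of it with an adjusted p under 0.01 rose: skr-4 (0.97), skr-20 (0.90), skr-3 (0.89) and skr-19 (0.79). The scaffold gene cul-1 had -0.59 (adjusted p = 0.0113), and cul-6, the cullin of the pathogen response ligase, had 48, 63 and 57 counts in wild type against 104, 151 and 178 in rpb-9 (0.94, adjusted p = 0.00885). In prg-1 none of 29 parts tested was called by edgeR (0.119% of all genes), with a median of -0.28 and 6 above 0. The prg-1 libraries were split for 5 of the linkers that rose in rpb-9. skr-8 had 105, 102.5 and 72.5 counts in wild type against 17, 19.5 and 128 in prg-1. In the same way, skr-9, skr-10, skr-12 and skr-13 lay below wild type in prg-1 replicates 1 and 2 and above it in replicate 3. By CPM, skr-7, skr-14 and skr-15 did so too, and these linkers were not called in rpb-9. skr-5 had too few counts there to be tested.

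The 10 F-box genes with classical names gave 0 calls in either table with edgeR, where 15.3% and 0.119% of all genes were called. Among the 10 are fog-2, sel-10 and lin-23, which act in sex determination, Notch signalling and cell division. The medians of the 10 were -0.26 in rpb-9 and -0.08 in prg-1. fog-2, the founder of the FTH domain, had a log2 fold change of -0.29 (adjusted p = 0.238) in rpb-9 and -0.04 in prg-1. Among 7 genes of the intracellular pathogen response, 3 were tested in each table and none was called. pals-5, a standard reporter of that response, had 2, 0 and 0 counts in wild type against 3, 2 and 0 in rpb-9.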

How the data were processed

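The authors deposited gene tables of expected counts (whole or split read counts per gene, not normalized) for polyA and for prg-1 Ribo-Zero RNA. Per the study's methods, reads of 50 bases were aligned with STAR to ce11 plus the piRNA sensor, end to end, without introns, and counted over exons with featureCounts, a read with several matches being split between them. No strand option is stated. Reads across splice junctions are therefore lost and overlapping or near-identical genes share reads. No molecular identifiers were used, so intervals cover counting error only. Exon length came from the deposited files.

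Counts were rounded to whole numbers, genes with 10 or more counts in 3 or more libraries were kept, and each table was tested alone with edgeR 4.0.16 (TMM scaling, quasi-likelihood test, genotype only, Benjamini-Hochberg over all genes tested) in R 4.3.3. A call needs an adjusted p under 0.01 with a log2 fold change beyond 1 in size. Errors of fold changes are the fold change over the square root of F. CPM used TMM-scaled library sizes and RPKM divided CPM by exon length. The procedure was tested on simulated data. DESeq2 1.42.0 was an alternative. In the prg-1 table, same-numbered libraries deviated together (correlations 0.154, 0.356 and 0.433). So did wild-type replicate 1 with prg-1 replicate 2 (0.322) and wild-type replicate 2 with prg-1 replicate 1 (0.157). The other pairs were at -0.489 to -0.224. The fit with the replicate number as a block changed no call of a member.

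Named members are the 10 called with the largest rise and fall, the 5 of highest wild-type level, fbxa-75 and fbxa-158, those nearest the thresholds, and closest copies, taken by shared 50-base windows in place of protein identity. fbxa-67, fbxa-37, fbxa-189, fbxa-83, cluster genes, fbxa-156 and fbxa-157 were named after their values were seen. The family, the lists and the motifs were chosen with earlier results of these data known. Gene symbols, clusters, gaps between adjacent fbxa genes and windows before starts came from the Ensembl annotation and RefSeq genome of WBcel235 (ce11). There, 200 of 200 start codons of fbxa genes read ATG. Positions in parentheses after gene names are instead the bounds in the count tables, which equal the annotation for 28 of 170 fbxa genes. Not used were 24 columns of per-sample values in 2 other tables whose names fit no single sample. fbxa pseudogenes were not analysed here.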

Additional observations from a re-analysis of the deposited data

How the results depend on the processing

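In polyA RNA the 33 higher and 4 lower members became 53 and 5 (58 called of 165 tested) with no filter on low counts (2902 and 280 of 27052 genes over all), and 51 and 12 (63 in all, against 7251 of 14275 genes) at an adjusted p under 0.05 with no fold threshold. RLE factors, library size alone, a filter on a mean of 10 counts and DESeq2 gave 31 to 43 higher and 4 lower. Leaving out 1 library gave 24 to 45 members called, 20 to 40 higher and 4 to 5 lower, and medians of 0.85 to 1.06. The lone fits pool the spread over all genes and keep the genes of the full table. With library size alone the members' median was 1.16 while that of all genes rose from 0.14 to 0.40, and fbxa-101 and fbxa-83 turned from below 0 to 0.088 and 0.00050. The replicate block gave 33 higher and 4 lower with a median of 0.91, where same-numbered libraries did not deviate together (correlations 0.0574, 0.108 and -0.136). Of the named members' values under alternatives, 260 kept direction and side of the threshold, 20 lost the call, 4 gained it and 2 changed sign. fbxa-163, fbxa-164, fbxa-9, fbxa-209, fbxa-37, fbxa-189 and fbxa-150 were those that lost it.

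In prg-1 RNA the count of 0 became 1 with library size alone, 3 with no filter, 2 with DESeq2 and 2 at an adjusted p under 0.05. Without 1 library it was 0 to 2, the 2 being fbxa-11 and fbxa-67 without prg-1 replicate 3. The median of 0.17 became 0.30 with library size alone and 0.48 with no filter, and 0.19 to 0.32 without 1 library. The replicate block gave 0 calls of members and a median of 0.18, and 21 calls over all genes against 14. With library size alone fbxa-215 and fbxa-101 turned to 0.0089 and 0.031, and fbxa-211 turned to -0.031 with no filter and to -0.029 to -0.0022 without 1 library. For these changes the cause was not tested. Clusters set with gaps of 25 or 100 kb held 51 or 61 members in place of 56. At this depth 125 of the 169 fbxa genes could not be tested in Ribo-Zero RNA, 51 of them with 3 or fewer counts in every library.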
